A study of Mus musculus with 17 samples.

Results

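The late response of SOCS3-deficient mouse macrophages to interleukin-6 (IL-6) was read from 6 of the 17 arrays of the series: the 3 titled as SOCS3-/- cells stimulated for 400 min and the 3 titled as unstimulated SOCS3-/- cells. The cells were bone marrow-derived macrophages. Per the labels, recipient mice were reconstituted with SOCS3-/- or SOCS3+/+ fetal liver cells taken from embryos, described as irradiated in one label, and macrophages were grown from donor-derived marrow of those recipients. SOCS3-/- cells are called KO and SOCS3+/+ cells WT here. IL-6 was given at 10 ng/ml, and total RNA was hybridised. The series also holds KO cells at 100 min (3 arrays) and WT cells unstimulated (2 arrays), at 100 min (3 arrays) and at 400 min (3 arrays). How donor cells were told from cells that the host kept, and the age and sex of donors and recipients, are not given in the labels. Replicates are numbered 1 to 3, and no label says whether they are separate cultures or mice, so the p-values cover the spread among arrays of a group, and that spread may be technical only. The question is which genes had changed after 400 min of IL-6 in cells that lack its feedback inhibitor. The series holds no array titled as 400 min without IL-6. Changes through IL-6 and through handling or time in culture therefore cannot be told apart.

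IL-6 binds its receptor together with gp130, the signalling subunit encoded by Il6st. Kinases of the JAK family then phosphorylate STAT3, which enters the nucleus and binds short palindromic DNA sites. SOCS3 is induced by STAT3, docks on gp130 and shuts the JAKs down, and macrophages are a cell type in which its loss is known to prolong STAT signalling after IL-6. STAT3 in macrophages is also known as the factor through which IL-10 acts.

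Socs3 itself was the check of the labels. One of its probe sets read 20.6, 23.6 and 16.5 on unstimulated KO arrays 1, 2 and 3 and 48.6, 78.5 and 903 on the KO arrays at 400 min, in the same order. The other read 73.1, 24.6 and 108 and 121, 79.4 and 793. Replicate 3 at 400 min thus carried Socs3 signal that replicates 1 and 2 did not, and the WT mean at 400 min was 2184 ± 191 (SD, n = 3) on the first probe set. Which part of the transcript the deletion removes is not given in the labels, so Socs3 signal alone cannot show that a label is wrong. The library labelled KO at 400 min, replicate 3, stands apart from replicates 1 and 2 on this gene. Each main result is therefore given with and without it. Over the probe sets tested, replicates 1 and 2 at 400 min correlated at 0.915, and replicate 3 correlated with them at 0.861 and 0.859, against 0.865 to 0.904 among the unstimulated arrays. Of 21 macrophage marker genes, 18 read above the array's 40th percentile on all 6 arrays, among them Csf1r, Adgre1, Itgam and Cd68, and their summed intensity was 162730 to 213940 unstimulated and 189330 to 217100 at 400 min. Summed B cell markers (16 genes, 5 of them above that percentile) were 6914 to 10589 unstimulated and 5897 to 6045 at 400 min, and summed mast cell and basophil markers (13 genes, 2 above it) 1728 to 2332 and 2528 to 2593. Gene by gene, the B cell markers tested had a median log2 change of 0.09, with 8 of 13 above 0, unlike their sum. For the mast cell and basophil markers the median was 0.57, with 3 of 5 above 0. The part of these cell types in the results was not tested, and 0 marker genes of any list lay at the floor on all 6 arrays. In bulk RNA, fewer cells of a type and less RNA per cell cannot be told apart.

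After 400 min of IL-6, KO macrophages held more RNA of 6 of 21 CC and CXC chemokines and 9 of 19 interferon-gamma-inducible GTPases and regulators, and of single receptors such as Il4ra and Fcgr2b. They held less RNA of single genes such as Pdcd4, Cpt1a, Lpl and Cebpa. Of all genes tested, 1.44% were higher and 0.835% lower, the shares to set beside the counts of each list. All lists were written with earlier results of these data known. Their counts, medians and ranks are therefore a description and no independent evidence. Of 9871 probe sets tested, 118 were higher (1.2%) and 62 were lower (0.628%) at an adjusted p under 0.05, the limit used for every call (limma, Benjamini-Hochberg). They stand for 102 and 59 genes with 1 symbol, besides 9 and 2 unnamed probe sets. The rises were the larger changes: their median log2 change was 1.96, 25 reached 3 and 12 reached 4, whereas the falls had a median of -1.52 and 1 of them reached 3 in size. The median over all probe sets tested was -0.04. In all 180 calls (1.82%) the 3 arrays at 400 min lay outside the range of the 3 unstimulated arrays, which was also the case for 17.7% of all probe sets tested, 8.56% higher and 9.11% lower. Of the called genes, 39 had a further tested probe set. In 7 of these more than 1 was called, and in 4 another tested probe set had the opposite sign.

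Leaving out KO replicate 3 at 400 min gave 101 higher (1.04% of 9751 tested) and 71 lower (0.728%), together 1.76%. Of the rises, 83 were called both times, which is 70.3% of the 118 and 82.2% of the 101. Of the falls, 42 were called both times, 67.7% of the 62 and 59.2% of the 71. All 117 rises and all 62 falls that could be read without this array kept their direction, with medians of 2.00 and -1.61. Since the 2 groups did not overlap in any call, leaving out 1 array could hardly turn a direction. The kept directions are therefore no support for the calls. Leaving out any other of the 6 arrays gave 73 to 99 calls, and a fit of these 6 arrays alone, without the spread of the other groups, gave 52. Of the 180 calls, 42 were kept in that fit. Where a lost call is described below, it was lost on leaving out 1 array, unless another setting is named.

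**Figure D1:**
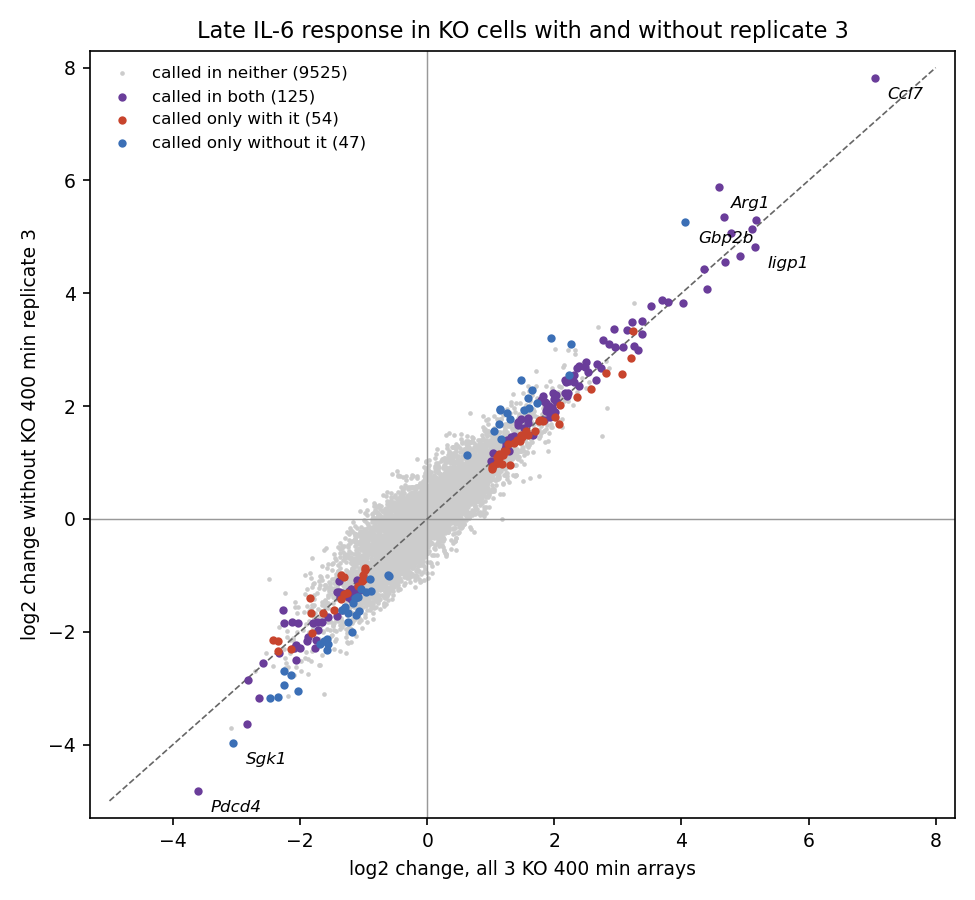
Log2 change from unstimulated to 400 min in KO cells for each probe set tested, with all 3 arrays at 400 min (horizontal) and without replicate 3 (vertical); colours show in which fit a probe set was called, and the dashed line marks equal values. The points run along that line, with Arg1, Gbp2b, Sgk1 and Pdcd4 farther from 0 without replicate 3.

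The chemokines held the largest rise of the comparison. Ccl7, which draws monocytes, went from 100.1, 116 and 9.13 on the unstimulated arrays to 14575, 13737 and 2929.6 at 400 min. Every stimulated array lay above every unstimulated one, replicate 3 the lowest of the stimulated and, under the floor of 22.009, of the unstimulated too. The log2 change was 7.04 (SE 1.05, adjusted p = 0.00367) with all arrays and 7.82 (adjusted p = 0.00442) without replicate 3. Ccl12, a close relative, gave 25.7, 16.9 and 48.1 unstimulated and 1238, 1109 and 925 at 400 min (log2 change 5.17, SE 0.69, adjusted p = 0.00198). Its 3 stimulated arrays lay close together. Ccl2, the main monocyte attractant through the receptor CCR2, read 445, 352 and 368 on the unstimulated arrays and 14808, 16442 and 3909.7 at 400 min, and replicate 3 was again well below the other stimulated arrays (log2 change 4.67, SE 0.90, adjusted p = 0.0179). Ccl8 went from 32.9, 173 and 278 on the unstimulated arrays to 2406, 1596 and 3936 at 400 min, with the highest stimulated value on replicate 3 (log2 change 4.41, SE 0.81, adjusted p = 0.0128). Ccl4, an attractant of monocytes and T cells, gave 279.6, 358 and 299.5 unstimulated and 1666, 1745 and 2583 at 400 min, without overlap between groups (log2 change 2.66, SE 0.32, adjusted p = 0.00109). Cxcl10, an interferon-induced attractant of T cells, read 78.7, 139.9 and 238 on the unstimulated arrays and 1113, 1155 and 1239 at 400 min (log2 change 3.08, SE 0.46, adjusted p = 0.00362). Of 21 CC and CXC chemokines tested, these 6 rose and none fell, the median over the list was 0.57, and without replicate 3 there were 7 higher. Over the 7063 genes tested, 1.44% were higher, 0.835% lower, and the median was -0.04. Ccr1, a receptor for several CC chemokines, rose too, from 327, 344 and 342 to 2877, 2829 and 1799 (log2 change 2.86, SE 0.48, adjusted p = 0.00808). Ccl7, Ccl12, Ccl4, Cxcl10 and Ccr1 kept their call under all 14 alternatives. Ccl7 and Ccl12 have 1 unstimulated array under the floor, which sets part of their size. Ccl2 lost it without unstimulated arrays 1, 2 or 3 or stimulated arrays 1 or 2 (adjusted p 0.0539 to 0.082), and Ccl8 without stimulated array 1 (adjusted p = 0.0538).

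**Figure D2:**
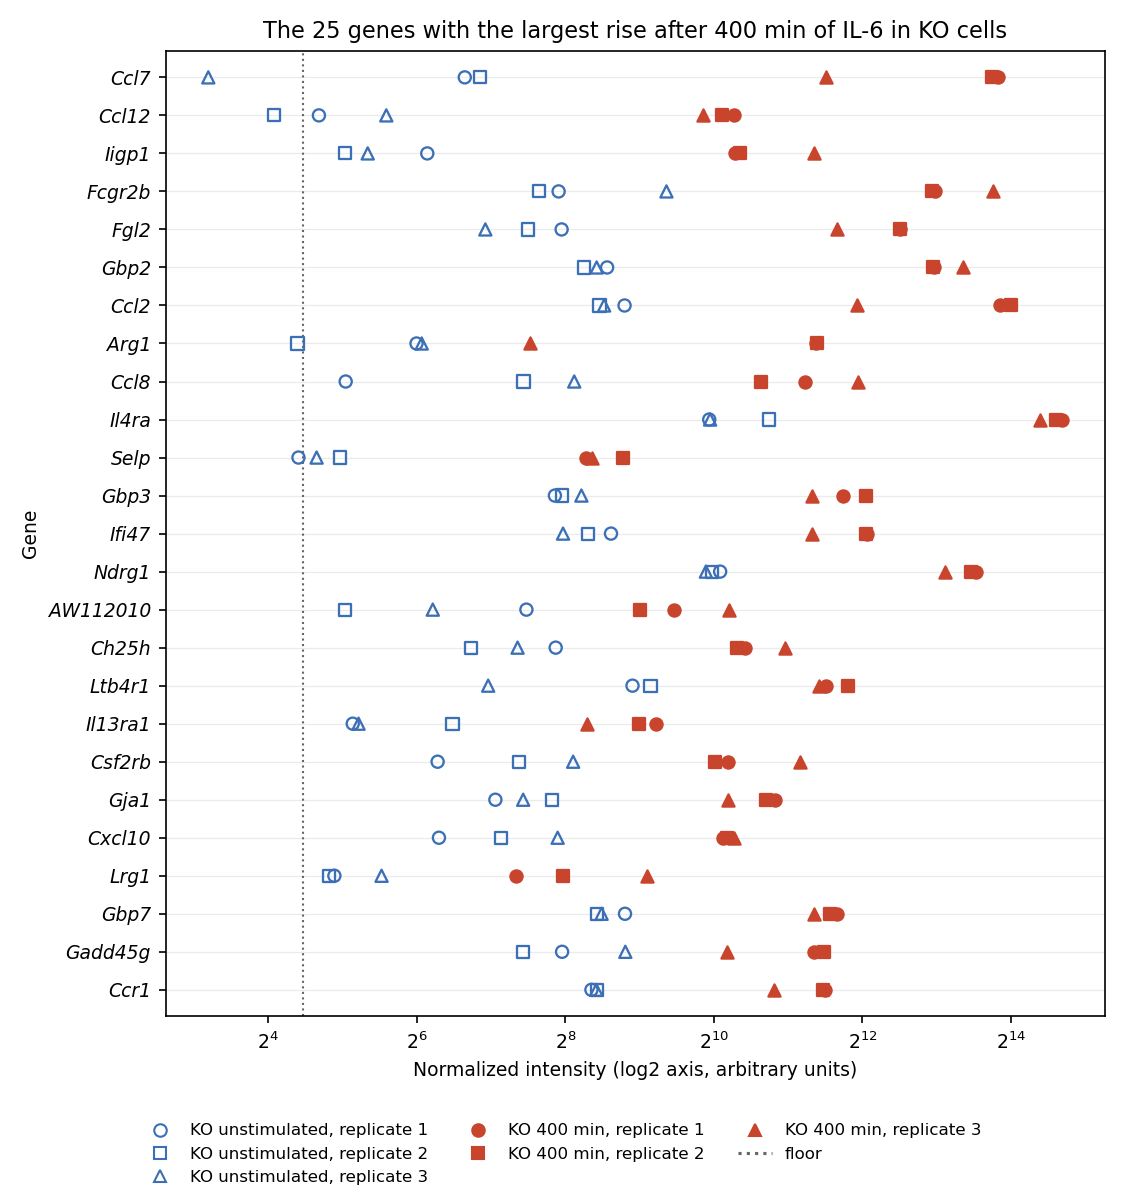
Normalized intensity (log2 axis) of the 25 genes with the largest called rise on the 3 unstimulated KO arrays (open) and the 3 KO arrays at 400 min (filled), one marker shape per replicate; the dotted line is the floor of 22.009. Filled and open markers do not overlap in any row, and for Arg1 replicate 3 at 400 min (triangle) lies close to the unstimulated arrays.

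The interferon-inducible GTPases, proteins that attack vacuoles of intracellular pathogens, and their regulators were the list with the highest share of called rises. Of 19 genes tested 9 were higher, none was lower, and the median log2 change was 1.93, or 1.84 without replicate 3. Of all genes tested 1.44% were higher. This list too was written with earlier results of these data known, so its rank is no independent evidence. Gbp2, a guanylate-binding protein, went from 378, 305 and 343 on the unstimulated arrays to 8024, 7891 and 10522 at 400 min, and replicate 3 was the highest of the stimulated arrays (log2 change 4.68, SE 0.44, adjusted p = 0.000143). Gbp3 gave 232, 248 and 297 unstimulated and 3408, 4219.5 and 2550.2 at 400 min (log2 change 3.69, SE 0.45, adjusted p = 0.00128). Gbp7 read 447, 344 and 359 on the unstimulated arrays and 3236, 3020 and 2602 at 400 min (log2 change 2.95, SE 0.48, adjusted p = 0.00698). Iigp1, an immunity-related GTPase, went from 70.5, 32.8 and 40.5 on the unstimulated arrays to 1245, 1310.2 and 2611 at 400 min, and both of its probe sets were called (5.16 and 4.02). Ifi47, another GTPase of that family, which stood on the type I interferon list, gave 392, 317 and 251 unstimulated and 4295, 4253 and 2555 at 400 min (log2 change 3.52, SE 0.57, adjusted p = 0.00647). Irf1, a transcription factor of interferon-gamma responses, read 586, 903 and 553 on the unstimulated arrays and 4667, 4244 and 3788 at 400 min, so that the groups stood far apart with little spread at 400 min (log2 change 2.67, SE 0.35, adjusted p = 0.00198). These 6 genes kept their call under all 14 alternatives. The other called members were Fcgr1, Casp1, Igtp (2.35) and Irgm2 (1.93), the last of them and Igtp named after their values were seen. Without replicate 3, Igtp had an adjusted p of 0.0721, although that array read its highest stimulated value, 2236.

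Of 32 type I interferon-stimulated genes tested, 5 were higher and none lower, with a median of 0.60. Besides Ifi47 and Cxcl10 these were Isg15, a ubiquitin-like protein, which went from 956, 942 and 1059 on the unstimulated arrays to 3783, 4106 and 3308 at 400 min (log2 change 1.92, SE 0.38, adjusted p = 0.0213), Plscr1 (1.80) and Trim30a (1.58). Irf7, the master regulator of type I interferon genes, read 1291, 1838 and 1146 on the unstimulated arrays and 2186, 2552 and 1601 at 400 min and was not called (log2 change 0.57, SE 0.44, adjusted p = 0.696). Isg15 lost its call without unstimulated arrays 1, 2 or 3 or stimulated arrays 1 or 2 (adjusted p 0.0578 to 0.0852). Trim30a lost its call without unstimulated arrays 1, 2 or 3 or stimulated arrays 1 or 2 (adjusted p 0.104 to 0.159), and Plscr1 without unstimulated arrays 1 or 2 or stimulated arrays 1 or 2 (adjusted p 0.0608 to 0.0773).

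The sequences just before the transcription start of some changed genes are shown because STAT and interferon-regulatory factors bind short DNA motifs there. They are the 250 bases before the first listed start of RefSeq on GRCm38.p6, 5′ to 3′ on the strand of the gene, and capitals mark bases that match a motif searched. Fgl2 (chr5:21372423-21372672, plus strand), Gbp2 (chr3:142620413-142620662, plus strand), Ccl12 (chr11:82101595-82101844, plus strand) and Pdcd4 (chr19:53891981-53892230, plus strand) were taken by the size of their change. So were Fcgr2b and Nbeal2, whose sequences are not printed. Genes without a promoter in the table, such as Ccl7, and those on a chromosome that the rule left out were passed over. The printed set does not show how often changed genes hold a motif. Irf1 (chr11:53769764-53770013, plus strand), Irgm2 (chr11:58214727-58214976, plus strand) and Isg15 (chr4:156200819-156201068, minus strand) were chosen after the matches were seen.
Fgl2: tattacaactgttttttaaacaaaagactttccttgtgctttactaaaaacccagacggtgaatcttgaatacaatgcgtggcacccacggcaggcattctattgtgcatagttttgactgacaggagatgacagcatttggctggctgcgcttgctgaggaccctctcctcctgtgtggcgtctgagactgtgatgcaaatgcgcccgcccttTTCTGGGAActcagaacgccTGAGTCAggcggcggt
Gbp2: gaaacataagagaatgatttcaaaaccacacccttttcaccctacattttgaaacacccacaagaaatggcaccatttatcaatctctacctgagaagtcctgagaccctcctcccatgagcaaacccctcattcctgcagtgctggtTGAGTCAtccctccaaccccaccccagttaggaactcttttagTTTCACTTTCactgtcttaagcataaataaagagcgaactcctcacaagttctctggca
Ccl12: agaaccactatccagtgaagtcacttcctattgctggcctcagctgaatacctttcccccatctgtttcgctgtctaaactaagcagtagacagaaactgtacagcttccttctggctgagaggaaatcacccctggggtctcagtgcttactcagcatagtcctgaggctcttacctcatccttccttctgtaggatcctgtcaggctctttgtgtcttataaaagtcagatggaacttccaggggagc
Irf1: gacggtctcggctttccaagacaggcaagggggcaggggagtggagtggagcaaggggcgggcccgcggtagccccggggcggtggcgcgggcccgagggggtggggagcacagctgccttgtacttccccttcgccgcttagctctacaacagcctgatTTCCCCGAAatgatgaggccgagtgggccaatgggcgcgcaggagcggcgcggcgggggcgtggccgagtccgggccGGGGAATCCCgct
Irgm2: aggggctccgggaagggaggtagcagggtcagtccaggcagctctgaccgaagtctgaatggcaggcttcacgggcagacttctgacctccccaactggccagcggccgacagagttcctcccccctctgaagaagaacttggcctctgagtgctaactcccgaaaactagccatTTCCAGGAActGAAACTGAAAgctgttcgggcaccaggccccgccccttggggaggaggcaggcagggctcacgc
Isg15: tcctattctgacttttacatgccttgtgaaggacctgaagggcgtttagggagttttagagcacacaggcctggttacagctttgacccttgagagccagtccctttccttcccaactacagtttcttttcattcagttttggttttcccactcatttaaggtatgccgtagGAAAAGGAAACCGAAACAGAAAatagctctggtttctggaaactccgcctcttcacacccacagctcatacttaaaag
Pdcd4: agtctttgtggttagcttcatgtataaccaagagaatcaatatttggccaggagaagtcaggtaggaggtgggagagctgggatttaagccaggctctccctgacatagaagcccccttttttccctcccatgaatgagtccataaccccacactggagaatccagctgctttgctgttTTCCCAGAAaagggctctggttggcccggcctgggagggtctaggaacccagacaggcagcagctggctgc

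In Fgl2 the letters TTCTGGGAA lie 36 to 28 bases before the start, and TGAGTCA 16 to 10 bases before it. In Gbp2 the run TTTCACTTTC, an interferon element on the opposite strand, lies 59 to 50 bases before the start. Irf1 holds TTCCCCGAA 90 to 82 bases and an NF-kappaB consensus 13 to 4 bases before its start. Irgm2 holds TTCCAGGAA 75 to 67 bases and GAAACTGAAA 64 to 55 bases before its start, and Isg15 holds 3 overlapping interferon elements within the bases 78 to 57 before its start. Ccl12 holds none of the motifs searched, and neither do the windows of Fcgr2b and Nbeal2. Pdcd4, whose RNA fell, holds TTCCCAGAA 71 to 63 bases before its start.

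A promoter was found in the table for 85 of the 102 risen and 52 of the 59 fallen genes. The STAT site, searched as TTCNNNGAA on both strands, was present in 13 of the 85 risen (15.3%) and 3 of the 52 fallen promoters (5.77%), against 6.07% of the promoters of all genes tested and 7.18% of the whole table. The stricter TTCCNGGAA, every match of which is also a match of the first, was in 3 risen (3.53%) and 0 fallen promoters, against 0.83% of genes tested. The interferon element, searched as GAAA, any 2 bases and GAAA on both strands, was in 11 risen (12.9%) and 0 fallen promoters, against 2.89%. The AP-1 site TGANTCA was in 7.06% and 7.69% against 5.1%, the NF-kappaB consensus in 11.8% and 13.5% against 8.65%, and the E-box CACGTG in 9.41% and 3.85% against 8.51%. Among the risen genes, Gbp7, Igtp, Irgm2 and Myd88 held both a STAT site and an interferon element. A match describes the letters of this window and no binding was measured.

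Some cytokine receptor genes rose. Il4ra, the alpha chain that IL-4 and IL-13 share, read 981, 1713 and 989 on the unstimulated arrays and 26429, 25018 and 21531 at 400 min, the 3 stimulated arrays close together (log2 change 4.35, SE 0.35, adjusted p = 6.59e-05). A further probe set of Il4ra with low signal gave 0.13 and was not called. Il13ra1, its partner in the IL-13 receptor, went from 35.2, 89.2 and 37.1 on the unstimulated arrays to 596, 509 and 312 at 400 min (log2 change 3.22, SE 0.43, adjusted p = 0.00198). Csf2rb, the signalling chain of the receptors of GM-CSF, IL-3 and IL-5, gave 77.7, 167 and 275 unstimulated and 1167, 1033 and 2292 at 400 min, with replicate 3 the highest on both sides (log2 change 3.20, SE 0.67, adjusted p = 0.0276). Csf2rb2, the IL-3-specific chain of the mouse, rose by less (1.20). Of the 12 genes of this receptor list these 4 were higher and none was lower, the median was 0.27, and 2 were higher without replicate 3. Csf2rb lost its call without unstimulated arrays 1 or 2 or stimulated arrays 1, 2 or 3 (adjusted p 0.0681 to 0.117). Csf2rb2 lost it without any 1 of the 6 arrays (adjusted p 0.0608 to 0.143).

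The IL-6 pathway itself was raised at 4 points out of 33 genes tested, with none lower and a median of 0.18. Il6st, the gp130 chain, read 274, 221 and 219.7 on the unstimulated arrays and 685, 951 and 441 at 400 min, and replicate 3 was the lowest of the stimulated arrays (log2 change 1.48, SE 0.33, adjusted p = 0.0396). Its other probe set gave 1.45 and was not called (adjusted p = 0.166). Stat3 went from 1907, 2019 and 1438 on the unstimulated arrays to 5008, 4764 and 4001 at 400 min (log2 change 1.37, SE 0.25, adjusted p = 0.0127), and its other probe set rose by 1.28. Gab1, an adaptor that links gp130 to SHP2 and MAP kinase signalling, gave 126, 103 and 131 unstimulated and 799, 744 and 405 at 400 min (log2 change 2.38, SE 0.35, adjusted p = 0.00362). A further Gab1 probe set gave 1.54 and was not called (adjusted p = 0.362). Ptpn1, a phosphatase that acts on JAKs, read 2508, 2170 and 1838 on the unstimulated arrays and 6169.7, 8024 and 5424 at 400 min (log2 change 1.58, SE 0.31, adjusted p = 0.019). Jak2 was not called with all arrays on either probe set (1.15, adjusted p = 0.366, and 2.37, adjusted p = 0.0659). On the first, it read 992, 955 and 191 at 400 min against 339, 205 and 237 unstimulated, so that replicate 3 lay below all 3 unstimulated arrays, and without it the log2 change was 1.95 (adjusted p = 0.00687). Socs1, the relative of SOCS3 that inhibits interferon receptors, read 258, 319 and 283 on the unstimulated arrays and 828, 848 and 852 at 400 min without overlap but was not called (log2 change 1.56, SE 0.46, adjusted p = 0.135). Il6ra, the ligand-binding chain, read 299, 382 and 553 on the unstimulated arrays and 369.7, 309.9 and 564 at 400 min, and Jak1 gave 0.16 (adjusted p = 0.916). Il6st lost its call without unstimulated arrays 1, 2 or 3 or stimulated arrays 1 or 2 (adjusted p 0.0832 to 0.163), Ptpn1 without unstimulated arrays 2 or 3 or stimulated arrays 1 or 2 (adjusted p 0.0681 to 0.0901) and Stat3 without unstimulated array 3 or stimulated arrays 1 or 2 (adjusted p 0.0561 to 0.0648).

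Of 44 genes listed as targets of STAT3, IL-6 or IL-10, 19 were higher and 2 lower, with a median of 1.29 (1.40 without replicate 3, where 16 were higher and 3 lower). The list was written with earlier results of these data known and is no independent evidence of a direction. Fcgr2b, the inhibitory Fc receptor, read 240.4, 199 and 658 on the unstimulated arrays and 8062, 7863 and 13819 at 400 min, replicate 3 the highest of both groups (log2 change 4.92, SE 0.51, adjusted p = 0.000277). Fgl2, a secreted fibrinogen-like protein, went from 247, 180.3 and 121 on the unstimulated arrays to 5827, 5843 and 3236 at 400 min (log2 change 4.77, SE 0.74, adjusted p = 0.00542). Selp (P-selectin), with which leukocytes are tethered, gave 21.2, 31.2 and 25.1 unstimulated and 311, 440.1 and 328 at 400 min, from about the floor to a clear signal (log2 change 3.78, SE 0.56, adjusted p = 0.00362). Gadd45g, a growth arrest protein, read 248, 172 and 448 on the unstimulated arrays and 2608, 2851 and 1163 at 400 min (log2 change 2.94, SE 0.39, adjusted p = 0.00198). Ch25h, which makes 25-hydroxycholesterol, went from 234, 106 and 164 on the unstimulated arrays to 1374, 1270.5 and 1991 at 400 min (log2 change 3.25, SE 0.43, adjusted p = 0.00198). Pim1, a kinase and classical STAT target that was named after its value was seen, rose by 2.01 (SE 0.22). Timp1, an inhibitor of matrix metalloproteinases, rose by 2.02, Ier3 by 2.38, Zfp36, which destabilises cytokine mRNA, by 1.94, and Junb by 1.49. Myc, near background when unstimulated, gave 28.5, 7.61 and 15.2 unstimulated and 138, 120.4 and 100.5 at 400 min (log2 change 2.31, SE 0.46, adjusted p = 0.02). Unstimulated arrays 2 and 3 lie under the floor, so this size is set by it and is a bound, and it was 1.34 with the offset of 50. Timp1 lost its call without stimulated array 2 (adjusted p = 0.0576). Junb lost it without any 1 of the 6 arrays (adjusted p 0.0578 to 0.136), and Myc without unstimulated arrays 1, 2 or 3 or stimulated array 2 (adjusted p 0.0519 to 0.0823).

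Arg1, arginase, an enzyme of alternative activation, was the gene on which replicate 3 differed most from the other stimulated arrays among the largest rises. It read 63.8, 20.997 and 66.96 on the unstimulated arrays and 2645, 2683 and 184 at 400 min. All 3 stimulated arrays lay above the unstimulated ones, but replicate 3 was close to them. The log2 change was 4.59 (SE 0.83, adjusted p = 0.0127) with all arrays and 5.88 (adjusted p = 0.000241) without replicate 3. Arg1 lost its call without unstimulated array 2 or stimulated arrays 1 or 2 (adjusted p 0.0672 to 0.068). Of 15 genes of alternative activation and arginine use, Arg1 rose and Igf1 fell, and the median was 0.83. Nos2, the enzyme that competes with arginase for arginine, read 53.7, 123 and 23.7 on the unstimulated arrays and 122, 23.6 and 109 at 400 min, an overlap of the groups (0.33, adjusted p = 0.94).

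Genes of uptake and antigen handling rose in part. Fcgr1, the high-affinity Fc receptor and an interferon-gamma target, gave 1800.4, 1469 and 1768 unstimulated and 11708, 9709.5 and 12027 at 400 min (log2 change 2.73, SE 0.42, adjusted p = 0.00542), and its second probe set rose by 1.96. Tlr6, a partner of TLR2 in sensing bacterial lipopeptides, rose by 2.03 (SE 0.38). These and Fcgr2b were the 3 higher of 19 Fc and phagocytic receptors, a list with a median of 0.05. Of 19 genes of MHC class I presentation, 3 were higher and the median was 0.28: Tap1, a peptide transporter, which read 895, 984 and 1268 on the unstimulated arrays and 2713, 2623 and 2552 at 400 min (log2 change 1.34, SE 0.22, adjusted p = 0.00767), and the immunoproteasome subunits Psmb10 (1.89) and Psmb9 (1.01). A further Tap1 probe set gave -0.67 and was not called. None of 15 genes of MHC class II presentation and costimulation was called, and their median was 0.32. Tlr6 lost its call without unstimulated arrays 2 or 3 or stimulated arrays 1 or 2 (adjusted p 0.0524 to 0.0796). Psmb10 lost it without unstimulated arrays 1, 2 or 3 or stimulated arrays 1 or 2 (adjusted p 0.0631 to 0.0894), and Psmb9 without unstimulated arrays 1 or 2 or stimulated arrays 1, 2 or 3 (adjusted p 0.0526 to 0.116).

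Inflammatory cytokine genes were mostly not called. Of 29 genes of the NF-kappaB list, Il1b and Ier3 were higher, none was lower, and the median was 0.33. Il1b went from 27.2, 26.3 and 12.3 on the unstimulated arrays to 164, 141 and 235 at 400 min (log2 change 2.81, SE 0.64, adjusted p = 0.0419), and it was not called without replicate 3 (log2 change 2.59, adjusted p = 0.115). Tnf read 198, 162 and 181 on the unstimulated arrays and 123, 136 and 81.2 at 400 min (-0.70, adjusted p = 0.723). Il10, an anti-inflammatory cytokine that also signals through STAT3, read 81.2, 199 and 136 on the unstimulated arrays and 676, 739 and 247 at 400 min, higher on all 3 stimulated arrays but not called (log2 change 1.94, SE 0.76, adjusted p = 0.297). Bcl3, an atypical inhibitor of NF-kappaB, read 1269, 881 and 331 on the unstimulated arrays and 2086, 2197 and 2768 at 400 min, likewise without overlap and not called (log2 change 1.70, SE 0.43, adjusted p = 0.0678). Cebpb, a factor of acute phase genes, gave 0.85 (adjusted p = 0.217). Il1b lost its call without any 1 of the 6 arrays (adjusted p 0.0997 to 0.135).

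Single genes of other lists rose as well. Ndrg1, a gene induced by hypoxia and differentiation, gave 1086, 1009 and 951 unstimulated and 11826, 11249 and 8841 at 400 min (log2 change 3.38, SE 0.32, adjusted p = 0.000143), and its other probe set rose by 3.37. Slc2a1, the glucose transporter GLUT1, was the 1 higher of 26 glycolysis and hypoxia genes (2.76, list median 0.31). Mt2, a metallothionein, read 2951, 3253 and 4114 on the unstimulated arrays and 8841, 9654 and 8062 at 400 min (log2 change 1.37, SE 0.19, adjusted p = 0.00284). Cdkn2d, an inhibitor of cyclin-dependent kinases, went from 989, 1048 and 1846 on the unstimulated arrays to 4356, 4041 and 4911 at 400 min (log2 change 1.83, SE 0.26, adjusted p = 0.00333). Casp1, the inflammasome protease, rose by 1.47. Gja1, the gap junction protein connexin 43, rose by 3.14 and Ltb4r1, a leukotriene receptor, by 3.24. Tgfbi, Adam9 and Timp1 were the 3 higher of 17 matrix proteases and inhibitors (1.01, 1.31 and 2.02), with a list median of 0.02. Fabp5, a fatty acid carrier, rose by 1.67, Ctsc, cathepsin C, by 1.04, Lrg1 by 3.06, and the transcript AW112010 by 3.31. Further Ctsc probe sets gave 0.74 and 0.20, or -0.23 and -0.23 without replicate 3, and were not called. Casp1 lost its call without any 1 of the 6 arrays (adjusted p 0.0704 to 0.127). Slc2a1 lost it without unstimulated arrays 1, 2 or 3 or stimulated arrays 1 or 2 (adjusted p 0.0688 to 0.154). For Gja1 it was lost without unstimulated arrays 1 or 3 or stimulated arrays 1 or 2 (adjusted p 0.0524 to 0.0711), for Tgfbi without unstimulated arrays 1 or 3 or stimulated arrays 1 or 2 (adjusted p 0.051 to 0.0618), and for Ctsc without unstimulated arrays 1, 2 or 3 or stimulated arrays 1 or 2 (adjusted p 0.072 to 0.143). For Ltb4r1 it was lost without unstimulated arrays 1 or 3 or stimulated arrays 1, 2 or 3 (adjusted p 0.0519 to 0.105), and for Lrg1 without any 1 of the 6 arrays (adjusted p 0.0652 to 0.142).

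Pdcd4 had the largest fall in the fit. It is a suppressor of translation whose loss is known from tumours. It gave 708, 430.5 and 772 unstimulated and 16.8, 12.99 and 270.2 at 400 min, close to or under the floor on stimulated arrays 1 and 2 and well above it on array 3. The log2 change was -3.60 (SE 0.74, adjusted p = 0.0247), and -4.82 (adjusted p = 0.000241) without replicate 3. Since stimulated arrays 1 and 2 lie under the floor, these sizes are set by it and are bounds, and with an offset of 50 in place of the floor the change was -2.60. Nbeal2, a protein of granule formation, read 365, 520.2 and 620.0 on the unstimulated arrays and 24, 65.4 and 204 at 400 min (log2 change -2.84, SE 0.65, adjusted p = 0.0425), with replicate 3 again nearest to the unstimulated arrays. Hspa1b, an inducible heat shock protein, went from 1259.7, 1273 and 763 on the unstimulated arrays to 123, 118 and 347 at 400 min (log2 change -2.64, SE 0.60, adjusted p = 0.0417), the only call among 31 heat shock proteins and chaperones. Slc46a1, a folate and haem transporter, gave 182, 163 and 202 unstimulated and 19.1, 28.2 and 27.9 at 400 min (log2 change -2.81, SE 0.57, adjusted p = 0.0227). Srsf10, a splicing factor, read 134, 175 and 152 on the unstimulated arrays and 30.7, 21.2 and 24.9 at 400 min (log2 change -2.58, SE 0.44, adjusted p = 0.00951), and kept its call under all 13 alternatives in which it could be tested. Its other probe set, at -0.67, was not called. Pdcd4 lost its call without unstimulated arrays 1, 2 or 3 or stimulated arrays 1 or 2 (adjusted p 0.0608 to 0.113), and Nbeal2 without unstimulated arrays 1, 2 or 3 or stimulated arrays 1 or 2 (adjusted p 0.0846 to 0.154). Hspa1b lost it without unstimulated arrays 1, 2 or 3 or stimulated arrays 1 or 2 (adjusted p 0.0737 to 0.159), and Slc46a1 without unstimulated arrays 1, 2 or 3 or stimulated arrays 1 or 2 (adjusted p 0.0711 to 0.0928).

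Hnrnpab and Smim4 have 2 stimulated arrays under the floor, and Slc46a1, Srsf10 and Surf6 have 1. With the offset of 50 the changes of low genes were smaller: -1.63 for Slc46a1, -1.43 for Srsf10, -1.25 for Hnrnpab, -1.14 for Smim4, -1.56 for Cd34, -1.18 for C030006K11Rik and -1.06 for Rabgap1l, and among the rises 2.42 for Selp, 1.66 for Il1b, 2.000 for Lrg1 and 1.63 for Ly6h.

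**Figure D3:**
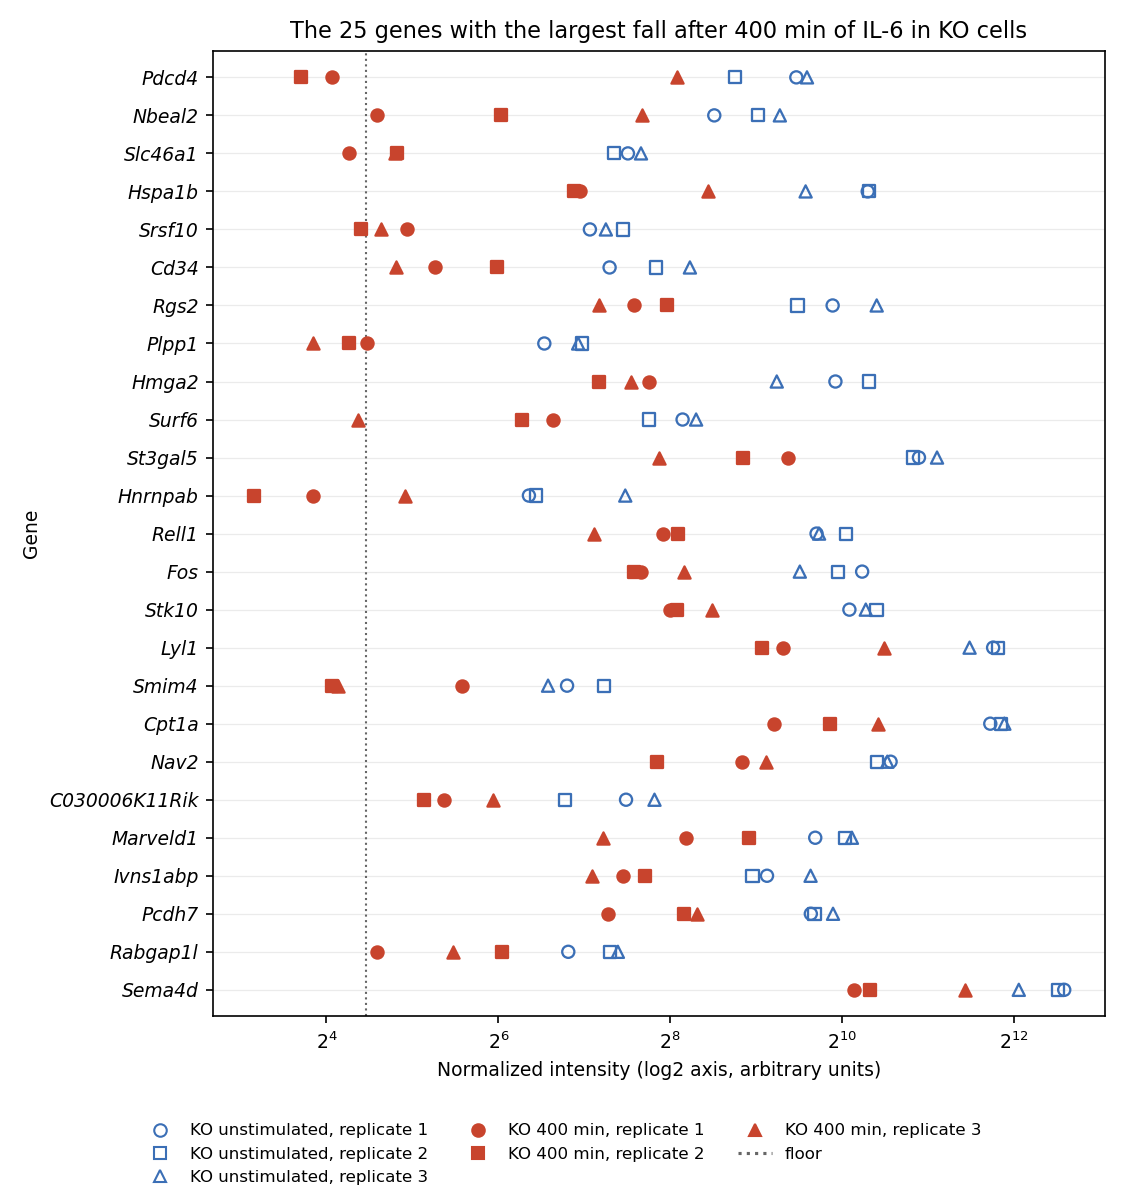
Normalized intensity (log2 axis) of the 25 genes with the largest called fall on the 3 unstimulated KO arrays (open) and the 3 KO arrays at 400 min (filled), one marker shape per replicate; the dotted line is the floor of 22.009. Open markers lie to the right of filled ones in every row, and replicate 3 at 400 min (triangle) lies nearest to the unstimulated arrays for Pdcd4, Nbeal2 and Hspa1b.

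Some genes of lipid storage and use fell. Cpt1a, which carries fatty acids into mitochondria for oxidation, went from 3385, 3699.8 and 3792 on the unstimulated arrays to 593, 925 and 1365 at 400 min (log2 change -1.995, SE 0.29, adjusted p = 0.00358). Lpl, lipoprotein lipase, gave 13579, 11249 and 12904 unstimulated and 5157, 5036 and 4172 at 400 min (log2 change -1.40, SE 0.25, adjusted p = 0.012), and its other probe set gave -1.55 without being called. Plin2, the coat protein of lipid droplets, read 18916, 19068 and 14690 on the unstimulated arrays and 8222, 6346 and 7821 at 400 min (log2 change -1.23, SE 0.21, adjusted p = 0.00951). Plpp1, a lipid phosphatase, went from 92.7, 126 and 122 on the unstimulated arrays to 22.1, 19.2 and 14.4 at 400 min, 2 of the stimulated arrays under the floor (log2 change -2.35, SE 0.55, adjusted p = 0.0448). This size too is set by the floor. It was -1.25 and not called (adjusted p = 0.0697) with the offset of 50, and a further probe set gave 0.33 (adjusted p = 0.857), in the other direction. Lpl, Plin2 and Plpp1 were the 3 lower of 28 genes of cholesterol and lipid handling, of which Ch25h and Fabp5 were higher, and the list median was -0.19. St3gal5, which makes the ganglioside GM3, gave 1904, 1809 and 2203 unstimulated and 662, 459 and 234 at 400 min, with replicate 3 the lowest (log2 change -2.25, SE 0.31, adjusted p = 0.00284). Cpt1a and St3gal5 kept their call without any 1 of the 6 arrays, and lost it, like most calls, in the fit of these 6 arrays alone. Lpl lost its call without unstimulated array 1 (adjusted p = 0.0531), Plin2 without stimulated array 2 (adjusted p = 0.0543) and Plpp1 without any 1 of the 6 arrays (adjusted p 0.0942 to 0.148).

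Single genes of the list of myeloid transcription factors were lower. Cebpa, a factor that directs granulocyte and macrophage differentiation, read 2623, 3229.7 and 3596 on the unstimulated arrays and 941, 826 and 1263 at 400 min (log2 change -1.65, SE 0.24, adjusted p = 0.00362). Hmga2, a chromatin protein of proliferating cells, went from 971, 1272 and 605 on the unstimulated arrays to 216, 144 and 187 at 400 min (log2 change -2.33, SE 0.40, adjusted p = 0.00844). Hhex fell by 1.34 on the log2 scale and Tgif1 by 1.30. These were the 4 lower of the 34 genes of that list (11.8%, against 0.835% of all genes tested), with none higher and a list median of -0.05. Lyl1, a haematopoietic basic helix-loop-helix factor, gave 3464, 3605 and 2865 unstimulated and 636, 536 and 1432 at 400 min (log2 change -2.07, SE 0.33, adjusted p = 0.00635), with replicate 3 nearest to the unstimulated arrays, and its other probe set gave -1.76. Fos, the AP-1 subunit and an immediate early gene, read 1204, 991 and 728 on the unstimulated arrays and 202, 191 and 286 at 400 min (log2 change -2.10, SE 0.46, adjusted p = 0.0357). Of 29 immediate early genes Fos and Rgs2 were lower, and Junb, Myc, Zfp36 and Ier3 were higher. Hhex lost its call without unstimulated arrays 2 or 3 or stimulated arrays 1 or 2 (adjusted p 0.0555 to 0.0841). Tgif1 lost it without any 1 of the 6 arrays (adjusted p 0.0824 to 0.173), and Fos without unstimulated arrays 1, 2 or 3 or stimulated arrays 1 or 2 (adjusted p 0.0634 to 0.134).

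Other genes that fell came from several lists or from none. Igf1, insulin-like growth factor, went from 4577, 3413 and 3215 on the unstimulated arrays to 1650, 1375 and 1143 at 400 min (log2 change -1.43, SE 0.26, adjusted p = 0.0137), whereas its other probe set gave -0.02 and was not called. Sema4d, a semaphorin, gave 6147, 5843 and 4261 unstimulated and 1128, 1281 and 2759 at 400 min (log2 change -1.75, SE 0.34, adjusted p = 0.0177). Cd34, Rgs2, Surf6, Rell1, Stk10, Nav2, Ivns1abp, Pcdh7, Marveld1, Smim4, Hnrnpab and C030006K11Rik, the other genes among the 25 largest falls besides Rabgap1l, changed by -2.43 to -1.82. Further probe sets of Cd34 and Hnrnpab gave -1.47 and -0.69 and were not called. Rell1 and Nav2 kept their call without any 1 of the 6 arrays, and lost it in the fit of these 6 arrays alone. Stk10 lost it without stimulated arrays 1 or 2 (adjusted p 0.0515 to 0.0538), Surf6 without unstimulated arrays 1 or 3 (adjusted p 0.0681 to 0.0705), Smim4, which was not tested without unstimulated array 2, without stimulated array 2 (adjusted p = 0.0681) and C030006K11Rik without unstimulated arrays 1 or 3 or stimulated arrays 1 or 2 (adjusted p 0.072 to 0.0862). Marveld1 lost it without unstimulated arrays 1, 2 or 3 or stimulated arrays 1 or 3 (adjusted p 0.0964 to 0.15). Cd34, Rgs2, Hnrnpab, Ivns1abp and Pcdh7 lost it without any 1 of the 6 arrays, at adjusted p of up to 0.167, 0.16, 0.155, 0.127 and 0.188. Rgs14, a regulator of G protein signalling, fell by 1.15 on the log2 scale and Blnk, an adaptor known from B cells, by 1.20. Kif23, a kinesin of cell division, read 765, 1191 and 1852 on the unstimulated arrays and 292, 445 and 507 at 400 min (log2 change -1.56, SE 0.34, adjusted p = 0.0352). Cell cycle and DNA replication genes were the list with the lowest median: -0.66 over 54 genes, and -0.82 without replicate 3, with 7 of 54 above 0. Kif23 was the 1 lower and Cdkn2d the 1 higher of them. Ribosomal proteins (28 genes, median -0.08) and oxidative phosphorylation (49 genes, median -0.08) had 0 calls each. Igf1 lost its call without unstimulated array 1 or stimulated array 2 (adjusted p 0.0576 to 0.0681), Sema4d without unstimulated arrays 1 or 2 or stimulated arrays 1 or 2 (adjusted p 0.0732 to 0.0826), Kif23 without unstimulated arrays 2 or 3 or stimulated arrays 1 or 2 (adjusted p 0.0911 to 0.153), Rgs14 without unstimulated arrays 1 or 2 or stimulated arrays 1 or 2 (adjusted p 0.0737 to 0.109) and Blnk without unstimulated array 1 or stimulated array 2 (adjusted p 0.0538 to 0.0576).

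**Figure D4:**
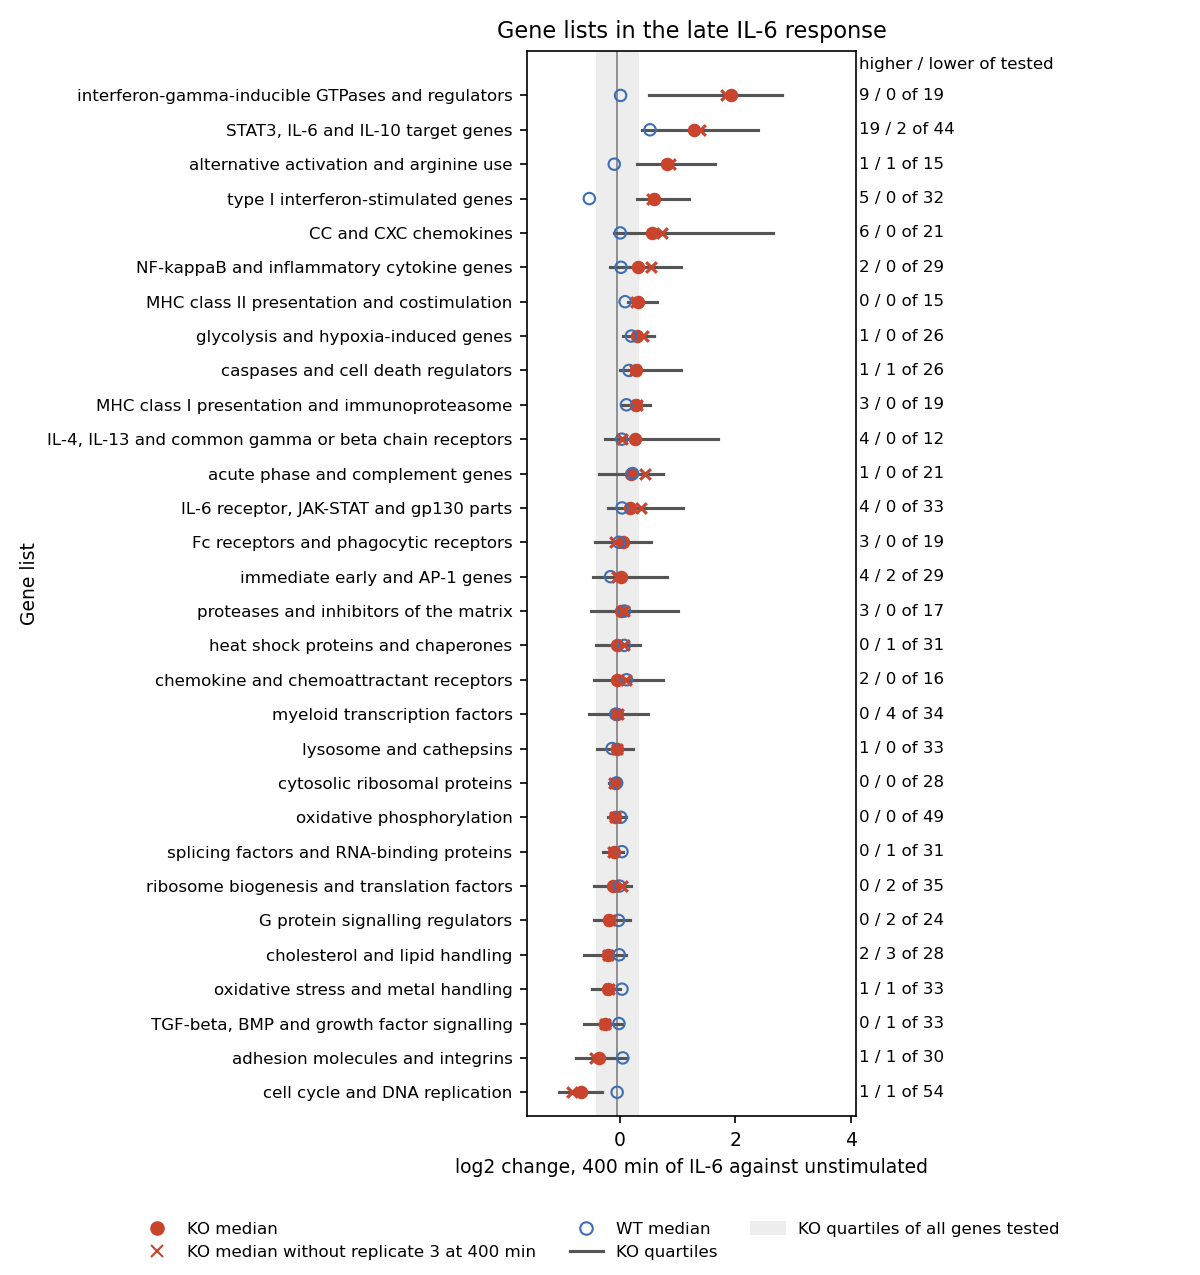
Median log2 change from unstimulated to 400 min over the tested genes of each of 30 lists in KO cells (filled), in KO cells without replicate 3 (crosses) and in WT cells (open), with the KO quartiles as lines, the KO quartiles of all genes tested as a grey band, and the counts of genes called higher and lower in KO cells at the right. The list of interferon-gamma-inducible GTPases and the STAT3 list have the highest medians in KO cells, and the cell cycle list the lowest.

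The array left out, KO replicate 3 at 400 min, was set against the mean of the unstimulated arrays for the probe sets called without it. The unstimulated arrays are those used to choose these probe sets, and replicates 1 and 2 at 400 min chose them too, so the values are a description. Replicate 3 had the same direction for 95 of the 101 rises and 65 of the 71 falls. It lay above the unstimulated mean for 49.4% of all probe sets tested. The median of replicate 3 was 1.75 against 2.18 in replicates 1 and 2 for the rises, and -0.91 against -1.72 for the falls. Gbp2b, a further guanylate-binding protein, read 154, 140.4 and 14.8 on the unstimulated arrays and 3010.4, 2934 and 249 at 400 min, with the third stimulated array between the unstimulated level and the other stimulated arrays, and was called without it (log2 change 5.27, adjusted p = 0.0461). Sgk1, a kinase induced by glucocorticoids and serum, read 1860.3, 1218 and 4089 on the unstimulated arrays and 112, 163 and 886 at 400 min, and was likewise called lower without it (log2 change -3.98, adjusted p = 0.0332). Fam20c, a kinase of secreted proteins, gave -2.48 with it and -3.17 without it, Rgl1 1.95 and 3.20, and Celsr2 -2.35 and -3.15. These 5 were called without replicate 3 and not with it. A further Celsr2 probe set gave -0.14 with it and was called in neither fit. Conversely Csf2rb, Ltb4r1, Lrg1, Il1b and Ly6h were the 5 largest rises called with it and not without it, with adjusted p values of 0.0861, 0.0564, 0.121, 0.115 and 0.117 when it was left out. Ly6h also lost its call without any other 1 of the 6 arrays. Their log2 changes were 3.20 and 2.86, 3.24 and 3.33, 3.06 and 2.57, 2.81 and 2.59, and 2.57 and 2.31, with and without it. Sex-linked RNA differed among these arrays as well: Xist read 993 on unstimulated array 3 and 408 on stimulated array 3, against 228 to 254 on the other 4, and its part in the results was not tested.

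Values at 100 min of IL-6 in the same KO cells are given beside those at 400 min. Both use the same unstimulated arrays, so the likeness of the columns of values is not a result. The 118 rises had a median log2 change of 1.35 at 100 min and 1.96 at 400 min, and the 62 falls -0.49 and -1.52. Tested directly, 400 against 100 min gave 0 calls in limma (0%), with 891 probe sets (9.03%) at an unadjusted p under 0.05, among them 56 of the 118 rises and 53 of the 62 falls. The members were selected on the same 400 min arrays, so those shares lean towards a larger change at 400 min. Some genes stood about as high at both times. Ccl4 gave 2.64 at 100 min and 2.66 at 400 min, Irf1 2.63 and 2.67, Ccl2 4.74 and 4.67, and Tap1 1.30 and 1.34. Others had most of their change after 100 min: Arg1 with 1.74 and 4.59, Ccl8 with 1.63 and 4.41, Fgl2 with 2.16 and 4.77, and Fcgr1 with 1.06 and 2.73. The 400 against 100 min difference of these 4 had adjusted p values of 0.305, 0.305, 0.305 and 0.217. Among the falls, Cpt1a had -0.50 and -1.995, Lpl -0.11 and -1.40, St3gal5 -0.65 and -2.25, and Pdcd4 -0.66 and -3.60, with adjusted p values of 0.144, 0.144, 0.144 and 0.212 for the difference. Ch25h (4.13 and 3.25), Cxcl10 (3.998 and 3.08) and Irgm2 (2.74 and 1.93) were higher at 100 min than at 400 min in the mean, with adjusted p values of 0.583, 0.589 and 0.459.

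The same interval in WT cells, 400 min against unstimulated, had 1 call (0.0101%), Il4ra, with 618 probe sets (6.26%) at an unadjusted p under 0.05. Only 2 unstimulated WT arrays entered it. The 118 KO rises had a WT median of 0.73 and 95 of them were above 0 in WT cells, and the 62 KO falls had a WT median of -0.50 with 56 below 0. Of all probe sets tested, 48.6% were above 0 in WT cells. The difference between the KO and the WT response, tested as an interaction, had 0 calls in limma (0%), with 531 probe sets (5.38%) at an unadjusted p under 0.05, including 65 of the 118 rises and 31 of the 62 falls. A direct comparison of KO with WT arrays at 400 min, added after the data were seen, gave 36 calls (0.365%), 31 higher and 5 lower in KO cells, and 860 probe sets (8.71%) at an unadjusted p under 0.05. The members were selected on the KO response, so those shares lean towards a larger KO response. Il4ra and 3 other receptor genes with large KO rises are given beside their WT values, of which that of Il4ra alone was called. The WT median of the IL-4, IL-13 and common chain receptor list was 0.04. Il4ra gave 3.58 in WT and 4.35 in KO cells, Fcgr2b 3.67 and 4.92, Il13ra1 2.08 and 3.22, and Csf2rb 3.86 and 3.20. For Il4ra the difference was 0.78 (SE 0.52) and for Csf2rb -0.66 (SE 1.01). Some interferon-related genes had WT values near or below 0: Irf1 gave 0.02, Gbp3 0.02 and Ifi47 -0.56. Others were above 0 in WT cells without being called. Gbp2 gave 1.08, Cxcl10 1.07, Iigp1 1.13 and 0.04 on its probe sets, and Fcgr1 1.34 and 0.80. The WT median was 0.02 for the list of interferon-gamma-inducible GTPases and -0.52 for the type I list. Ch25h, of the STAT3 and the cholesterol lists, gave -0.01. The smallest p-values of the difference among the called genes were those of Rabgap1l, Gbp2, Gbp3, Tap1 and Ch25h, with adjusted p values of 0.1, 0.181, 0.181, 0.181 and 0.217, all above the limit for a call. The differences were -3.58 (SE 0.53), 3.60 (SE 0.66), 3.67 (SE 0.68), 1.79 (SE 0.33) and 3.25 (SE 0.65). Rabgap1l fell in KO cells, from 113, 158 and 168 to 24.1, 66.1 and 44.5, and read 32.3 and 51.1 on the 2 unstimulated and 121, 165 and 136 on the 3 stimulated WT arrays. Its KO call was lost without unstimulated arrays 2 or 3 or stimulated array 1 (adjusted p 0.0768 to 0.082).

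**Figure D5:**
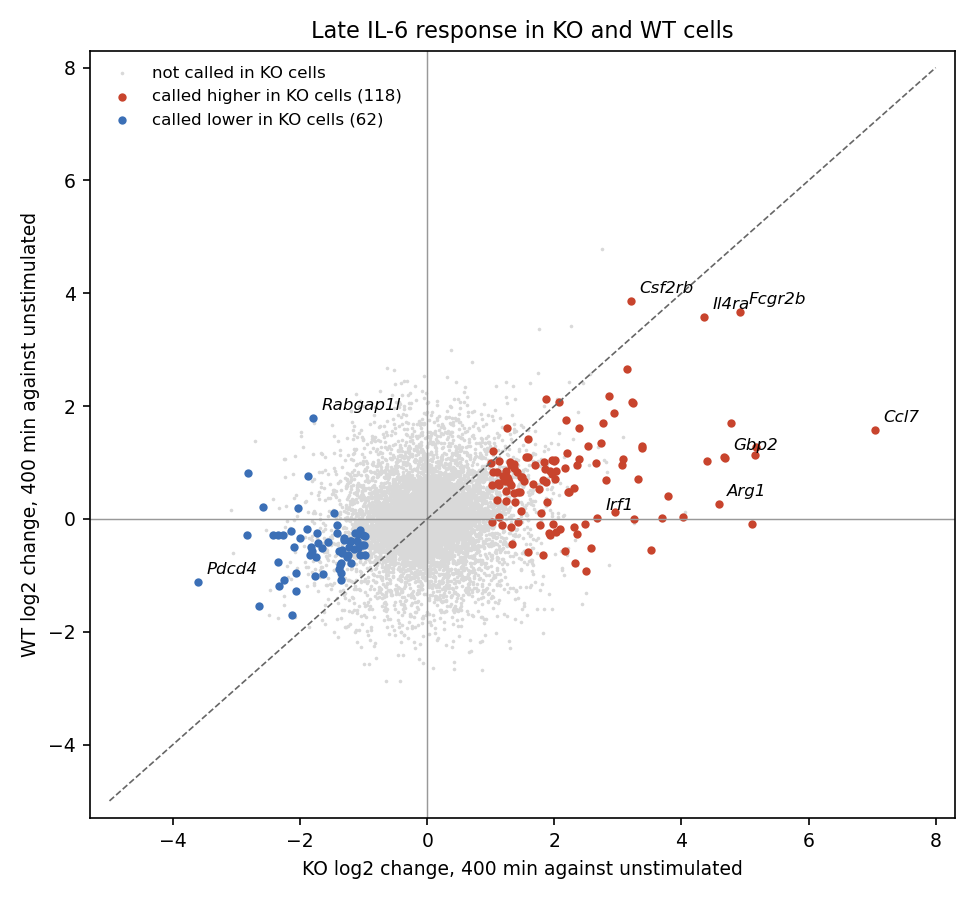
Log2 change from unstimulated to 400 min in KO cells (horizontal) and WT cells (vertical) for each probe set tested; red and blue points are those called higher and lower in KO cells, and the dashed line marks equal values. Of the 118 red points, 113 lie below the line, while Csf2rb lies above it and Il4ra just below it.

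Across the medians of the lists, the KO response was 1.93 for the interferon-gamma-inducible GTPases and regulators against 0.02 in WT cells, 0.60 for type I interferon genes against -0.52, 1.29 for the STAT3 list against 0.53, and -0.66 for the cell cycle against -0.04. Gapdh and the main Actb probe set served as reference genes. Gapdh probe sets stood among the array controls and were not tested; the brightest read 38686, 35913 and 32381 unstimulated and 45655, 40238 and 30462 at 400 min. Actb read 20610, 7961 and 3470 on the unstimulated arrays and 12182, 5352 and 9204 at 400 min, a wide spread within each group, with a change of 0.03 (adjusted p = 0.996). An Actb probe set among the array controls, which was not tested, read highest on replicate 3 in both groups. It gave 17859, 19581 and 55469 unstimulated and 21337, 25380 and 42623 at 400 min. Csf1r, the receptor for the growth factor of macrophages, read 25380, 22295 and 14177 on the unstimulated arrays and 14477, 14477 and 13433 at 400 min (-0.50, adjusted p = 0.558).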

How the data were processed

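The authors deposited 1 intensity per probe set and array for 17 mouse arrays, with 12488 probe sets. These deposited intensities have medians of 164 to 217 per array, and their mean without the lowest and highest 2% is at least 500.33 on every array. The scaling software is not given in the sources used here. Probe sets were named through the platform annotation: 10855 had 1 gene symbol, 396 several and 1237 none, and only the first were named. Arrays were quantile normalized, values under the 10th percentile (22.009) were set to it, and log2 was taken. Intensities in the text are normalized values before that floor. After leaving out 66 array controls, 9871 probe sets that exceeded the 40th percentile of an array on 2 arrays or more entered a limma fit (3.58.1, R 4.3.3) of 6 group means over 17 arrays, with Benjamini-Hochberg adjustment. Lists count each gene once. The precision is limited by 3 arrays a group.

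Named genes were the 25 largest called rises and falls, up to 6 called members of each list, fixed reference genes, the 5 largest called with or without KO replicate 3 at 400 min alone, and the 5 smallest p-values of the KO against WT test. Others are said to have been named after their values were seen. The members and lists were chosen with earlier results of these data known. On simulated data, 8%, 54%, 86% and 86% of 50 probe sets each, changed by 1, 2, 3 and 4 on the log2 scale in this comparison of 9871, were called. Those data had independent normal noise, an equal shift of all KO arrays at 400 min, no floor and no deviating array. The shares may therefore differ for the real arrays. Alternatives were no quantile normalization, an offset of 50, other filters, a fit of the compared groups alone, a replicate block, and leaving out arrays.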

Additional observations from a re-analysis of the deposited data

How the results depend on the processing

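The 180 calls at 400 min in KO cells (118 higher, 62 lower) became 175 without quantile normalization, 221 with an offset of 50, 144 without the filter and 268 with the filter at the 60th percentile, where 108 were lower. The fit of the compared groups alone gave 52 (46 higher, 6 lower), of which 42 were among the 180, and replicates 1 and 2 alone gave 309 (137 lower). Leaving out 1 array gave 73 to 172 calls, 50 to 101 higher and 19 to 71 lower. Without KO replicate 3 at 400 min, the 172 calls became 293 with the stricter filter, 48 in the fit of the compared groups and 309 with replicates 1 and 2 alone, and 23 to 93 on leaving out a further array. The KO against WT response had 0 calls, 3 without the filter, 5 in the fit of the compared groups, 17 with replicates 1 and 2 alone and 0 to 1 on leaving out 1 array. The WT response had 1 call, 2 with the offset and with either other filter, 0 in the fit of the compared groups, 16 with replicates 1 and 2 alone and 0 to 16 on leaving out 1 array (16 without WT unstimulated replicate 1, 0 without replicate 2 and 4 without WT replicate 1 at 400 min). The cause of these shifts was not tested.

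With the replicate number as a block, the KO calls were 305 (180 higher, 125 lower), and 332 (198 higher, 134 lower) with replicate 3 set against 1 and 2. Those blocks gave 4 and 5 calls for KO against WT and 3 and 3 for WT. Same-numbered arrays correlated at 0.062, 0.052 and 0.124 in their deviations, and every array correlated best with its own number, a hint from the data and not from the design, so the numbers were not taken as pairs.

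Of 89 named called genes, 89 kept their direction under the alternatives run and 19 kept their call under all of them. The groups of these genes did not overlap, so their direction was largely fixed beforehand. The sign turned in 4 genes that were not called. Actb gave -0.67 with replicates 1 and 2 alone and -0.605 to 0.684 on leaving out 1 array, Il6ra -0.0254 without quantile normalization and -0.237 to 0.246 on leaving out 1 array, Jak1 -0.0327 to 0.515 and Nos2 -0.264 to 1.09 likewise.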

Other observations

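Some called genes stood on no list and were picked after their values were seen. They are single genes and stand for no group: of the 33 genes of the lysosome and cathepsin list 1 was higher, with a median of -0.05. Dab2, a clathrin adaptor, had 3 called probe sets (2.53, 1.99 and 1.85), and the first read 1156, 826 and 1568 unstimulated and 6272, 7696 and 6024 at 400 min. Mcoln2, a lysosomal cation channel, went from 493, 543 and 589.9 to 2142, 1921 and 1882 (log2 change 1.87, SE 0.27, adjusted p = 0.00362). Snx5, a sorting nexin, rose by 1.24, Stx12, a syntaxin of endosomes, by 1.13, Ap1b1, a subunit of the AP-1 clathrin adaptor, by 1.19, and C9orf72 by 1.36. Myd88, the adaptor of Toll-like receptors, read 1496, 2463 and 1043 and 7619.7, 7142 and 6303 (log2 change 2.16, SE 0.31, adjusted p = 0.00347). Il17ra, a receptor chain of IL-17, rose by 1.82, Il18bp, a soluble inhibitor of IL-18, by 2.49, and the membrane transporter genes Slc31a1 and Slc12a7 by 1.55 and 1.32. Without KO replicate 3 at 400 min, Stx12, Ap1b1 and Slc31a1 had adjusted p of 0.0643, 0.105 and 0.0663, and the other 8 genes stayed under the limit in their called probe set. Snx5, Ap1b1, Il17ra and Slc31a1 have a further tested probe set that was not called.

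Single genes that were lower were picked in the same way, and no list or count stands behind them. Ptpn22, a phosphatase that restrains antigen receptor signalling, went from 1608, 1231 and 1344 to 268, 476 and 579 (log2 change -1.72, SE 0.27, adjusted p = 0.00619). Prkcd, protein kinase C delta, went from 4209.5, 5157 and 3314 to 1683, 1524 and 2108 (log2 change -1.24, SE 0.24, adjusted p = 0.0177). Of kinases and phosphatases named elsewhere, Pim1 and Ptpn1 were higher. Mapk14, the p38 alpha MAP kinase, gave -1.06, Map2k5 -0.98, Stk38 -1.34 and Arrb1, a beta-arrestin, -1.14. Adcy9, an adenylate cyclase, read 547, 779 and 324 and 147, 148 and 172 (log2 change -1.74, SE 0.28, adjusted p = 0.00635). Fads1 and Degs1, desaturases of fatty acids and of sphingolipids, gave -1.05 and -1.35, and Sptssa, a subunit of serine palmitoyltransferase, -1.03. Without KO replicate 3 at 400 min, Map2k5 (0.0861) and Sptssa (0.053) were above an adjusted p of 0.05. Prkcd, Stk38, Arrb1 and Adcy9 have a further tested probe set that was not called.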
